A study of Mus musculus with 18 samples.

Results

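The genes described here are 9 markers of interferon signalling and antigen presentation, read in mouse knee cartilage after rupture of the anterior cruciate ligament (ACL). They comprise 4 interferon-stimulated genes (ISGs), Ifit1, Ifit3, Isg15 and Irf7, and 5 genes of the major histocompatibility complex (MHC) class II pathway, H2-Aa, H2-Ab1, H2-Eb1, Cd74 and Ciita. They were chosen by name, and each was found among the 49184 genes to which the deposited transcripts could be assigned. All animals were male C57Bl/6J mice aged 12 weeks. A single mechanical load ruptured the ACL of the right knee, and the left knee served as the contralateral control. Caps of femoral condyle cartilage were taken from naive mice (6 libraries, labelled as day 7 controls), from contralateral and injured knees at day 1 (3 libraries each) and from contralateral and injured knees at day 7 (3 libraries each). Every library was a pool. The labels give 4 mice per pool, whereas the methods scheme gives 2 knees per pool for the naive and day 1 libraries and 4 for day 7. The methods give 6 naive mice with left and right knees pooled separately. On that scheme each naive library shared animals with another naive library, and the labels do not name which. The 18 libraries held between 16074762 and 41794005 estimated counts, with a median of 25465706.5.

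Interferons are secreted proteins that bind paired receptors and, through JAK kinases, activate STAT transcription factors, which join IRF9 on interferon-stimulated response elements (ISREs) in the promoters of ISGs. MHC class II molecules are pairs of an alpha and a beta chain that display peptides to CD4+ T cells. Their constitutive expression is typical of B cells, dendritic cells and macrophages, and interferon gamma can induce it in other cells through the co-activator CIITA. Cartilage contains chondrocytes and normally no vessels, so transcripts of both programmes in a cartilage cap can come from resident cells or from cells of adjoining marrow and synovium. In bulk tissue, a smaller number of cells of a type and less RNA per cell cannot be told apart.

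The promoters of the 4 ISGs and of H2-Aa and H2-Eb1 were read from RefSeq (GRCm38.p6, 250 bases before to 50 after the transcription start), and matched for 6 of the 9 members. The ISRE core, GAAA and a second GAAA separated by any 2 bases, was searched on both strands and was present in Ifit1, Ifit3 and Isg15 (3 of 4 ISG members) against 3.44% of all 32851 promoters in the table. It was not matched in Irf7, H2-Aa or H2-Eb1. An inverted CCAAT box, TGATTGG, also searched on both strands, was present in both class II promoters and in none of the 4 ISG members, against 7.82% of all promoters. In class II promoters this box is part of a conserved module that binds the factor NF-Y next to sites for the RFX and CREB proteins. The third motif, the gamma-activated site TTCNNNGAA, was in 0 of the 6 promoters, against 8.30% of all promoters. A match is a description of letters and not a binding site. The windows below are shown because they carry the motifs found in these 5 promoters, with the motif in capitals and each sequence read 5′ to 3′ on the strand of its gene.
Ifit1, chr19:34640777-34640802, plus strand: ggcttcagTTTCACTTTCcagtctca
Ifit1, chr19:34640796-34640821, plus strand: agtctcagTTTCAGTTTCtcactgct
Ifit3, chr19:34583365-34583390, plus strand: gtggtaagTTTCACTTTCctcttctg
Ifit3, chr19:34583399-34583424, plus strand: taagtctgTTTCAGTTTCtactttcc
Isg15, chr4:156200873-156200898, minus strand: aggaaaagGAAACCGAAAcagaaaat
H2-Aa, chr17:34287859-34287881, minus strand: gaattttcTGATTGGttctggcg
H2-Eb1, chr17:34305798-34305820, plus strand: tttgatgcTGATTGGctcccagc
The matches in Ifit1 began 104 and 85 bases before its start, those in Ifit3 began 156 and 122 bases before, and all 4 read the core on the opposite strand. Isg15 held 3 overlapping matches, of which the middle one, 72 bases before the start, is printed. The inverted CCAAT box lay 50 bases before the start in H2-Aa and 61 bases before it in H2-Eb1. Among the other ISGs considered below, 20 of the 38 with a promoter in the table held the ISRE core (52.6%), 10 held the gamma-activated site (26.3%) and 2 the inverted CCAAT box. Of 17 MHC class I pathway genes 4 held the ISRE core, 1 the gamma-activated site and 8 the inverted CCAAT box.

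Levels between genes were compared as TPM, transcript abundances scaled by length and library size. Over the 18 libraries Cd74, the invariant chain that guides and protects new class II molecules, was highest at 131 ± 35.6 TPM (mean ± SD). H2-Aa, the alpha chain of the I-A molecule, followed at 52.3 ± 14.5 TPM, and H2-Eb1, the beta chain of I-E, at 49.3 ± 11.4 TPM. Isg15, a ubiquitin-like protein that is conjugated to other proteins, was at 41.2 ± 25.3 TPM and H2-Ab1, the beta chain of I-A, at 38.8 ± 11.1 TPM. Irf7, a transcription factor that amplifies type I interferon production, was at 29.3 ± 20.0 TPM. The RNA-binding antiviral proteins Ifit3 and Ifit1 were at 11.1 ± 8.52 and 8.74 ± 6.54 TPM, and Ciita, the co-activator that switches class II genes on, was lowest at 2.13 ± 0.941 TPM. Between H2-Aa and Ifit1 each gene lay within 1 SD (the larger of the pair) of the next in this order, whereas the gaps from Cd74 to H2-Aa and from Ifit1 to Ciita were wider than that. This order is one of means. Single libraries overlapped, with Ifit1 between 1.65 and 22.2 TPM and Ciita between 0.748 and 3.85 TPM, and in some libraries Ciita lay above Ifit1. The H2-Aa to H2-Ab1 ratio of TPM stayed near 1.35 ± 0.107, between 1.12 and 1.59 in every library. The alpha-chain partner of H2-Eb1 is annotated as a pseudogene, H2-Ea-ps, and did not exceed 0.0493 CPM (counts scaled by library size alone) in any library.

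Several libraries did not group by their labels, and this is given before the results because it bears on each of them. Over 9886 genes of mean CPM at least 10, each naive or day 1 library was matched to the library whose deviations from the mean of the 12 correlated best with its own. The best match carried another label in 11 of 12 cases, and in 10 of 12 with the genes most like the ISGs left out. Of the 11 libraries that each could match, 6 carried another label for a naive library and 9 for a day 1 library. Contralateral and injured pools of the same day share mice, so a match between them can be one of knees from the same animals. The labels do not name which pools share mice, and the cause of the matches was not tested. The library labelled day 1 contralateral replicate 3 and that labelled day 1 injured replicate 2 matched each other (r = 0.73), as did naive replicate 4 and day 1 injured replicate 1 (r = 0.60) and naive replicate 6 and day 1 contralateral replicate 2 (r = 0.54). The libraries labelled naive replicate 5, day 1 contralateral replicate 3 and day 1 injured replicate 2 shared high levels of some transcripts that were also high in day 7 injured knees. Timp1, an inhibitor of matrix metalloproteinases, lay between 87.6 and 94.0 CPM in these 3 libraries between 5.26 and 15.3 CPM in the other 9 of the naive and day 1 labels, and between 59.0 and 83.3 CPM in day 7 injured libraries. Tnfaip6, a hyaluronan-binding protein induced in inflammation, lay between 19.6 and 37.1 CPM against 1.35 to 4.04 CPM, and between 39.95 and 78.1 CPM in day 7 injured libraries. Ccl2, a chemokine that attracts monocytes, lay between 13.3 and 17.9 CPM in the 3 libraries, against 0.322 to 3.13 CPM in the other 9 and at most 3.0496 CPM in day 7 injured libraries. These transcripts were named after their values were seen. In the library labelled day 7 contralateral replicate 1, 10 genes took 42.5% of the counts and Gm12895 was the most abundant gene, against at most 29.8% in any other library. Libraries are called by their labels throughout and none was moved between groups, and tests were also run without the 3 libraries high in Timp1 and, for the comparisons that use its group, without each single library. No test left out all the libraries that matched another label. Replicate numbers follow the order of the sample records and pair nothing.

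The tissue label was checked against marker genes. Of 12 chondrocyte markers, Col2a1 was the most abundant, and their summed level lay between 4493 and 14062 CPM. Transcripts of blood and marrow cells were abundant. The 9 erythroid markers (Hbb-bs most abundant) summed to between 16745 and 64694 CPM and the 10 neutrophil markers (Ngp most abundant) to between 7908 and 16105 CPM. The marker lists of cell types that express class II constitutively had lower sums. Such sums are not scaled by length and lean on the most abundant gene of each list, so they do not rank the cell types by number. The 12 macrophage markers (Lyz2 most abundant) lay between 2310 and 3617 CPM, the 14 B cell markers (Ighm most abundant) between 444 and 858 CPM and the 10 dendritic cell markers (Zbtb46 most abundant) between 62.4 and 90.3 CPM. The 10 T and NK cell markers, of which Nkg7 was the most abundant, lay between 33.8 and 70.7 CPM. No marker of these lists was at 0 in every library.

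In the naive and day 1 groups the ISG members differed widely between libraries of the same label, and these groups overlapped. In the naive group Ifit1 ranged from 7.70 to 100 CPM with a median of 37.2 CPM. It was 9.48, 92.9 and 11.8 CPM in the day 1 contralateral libraries and 67.8, 8.26 and 8.65 CPM in the day 1 injured libraries. At day 7 Ifit1 was 56.8, 52.5 and 47.1 CPM in contralateral knees and 31.9, 56.2 and 41.0 CPM in injured knees. One library in each day 1 group was therefore high and the other two were low, and the naive libraries spanned the whole of that range. Ifit3 followed Ifit1, from 7.25 to 69.2 CPM in the naive group (median 28.1 CPM). It was 6.83, 64.7 and 7.91 CPM in day 1 contralateral, 73.0, 8.51 and 6.003 CPM in day 1 injured, 79.7, 41.6 and 28.8 CPM in day 7 contralateral and 26.8, 47.7 and 29.3 CPM in day 7 injured libraries. The level of Ifit3 is uncertain in part, since 61.8% of the 31-base words of its transcript also occur in its paralogue Ifit3b, against at most 13.1% shared with any other gene for each other member. Ifit3b itself ranged from 2.57 to 38.3 CPM.

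**Figure D1:**
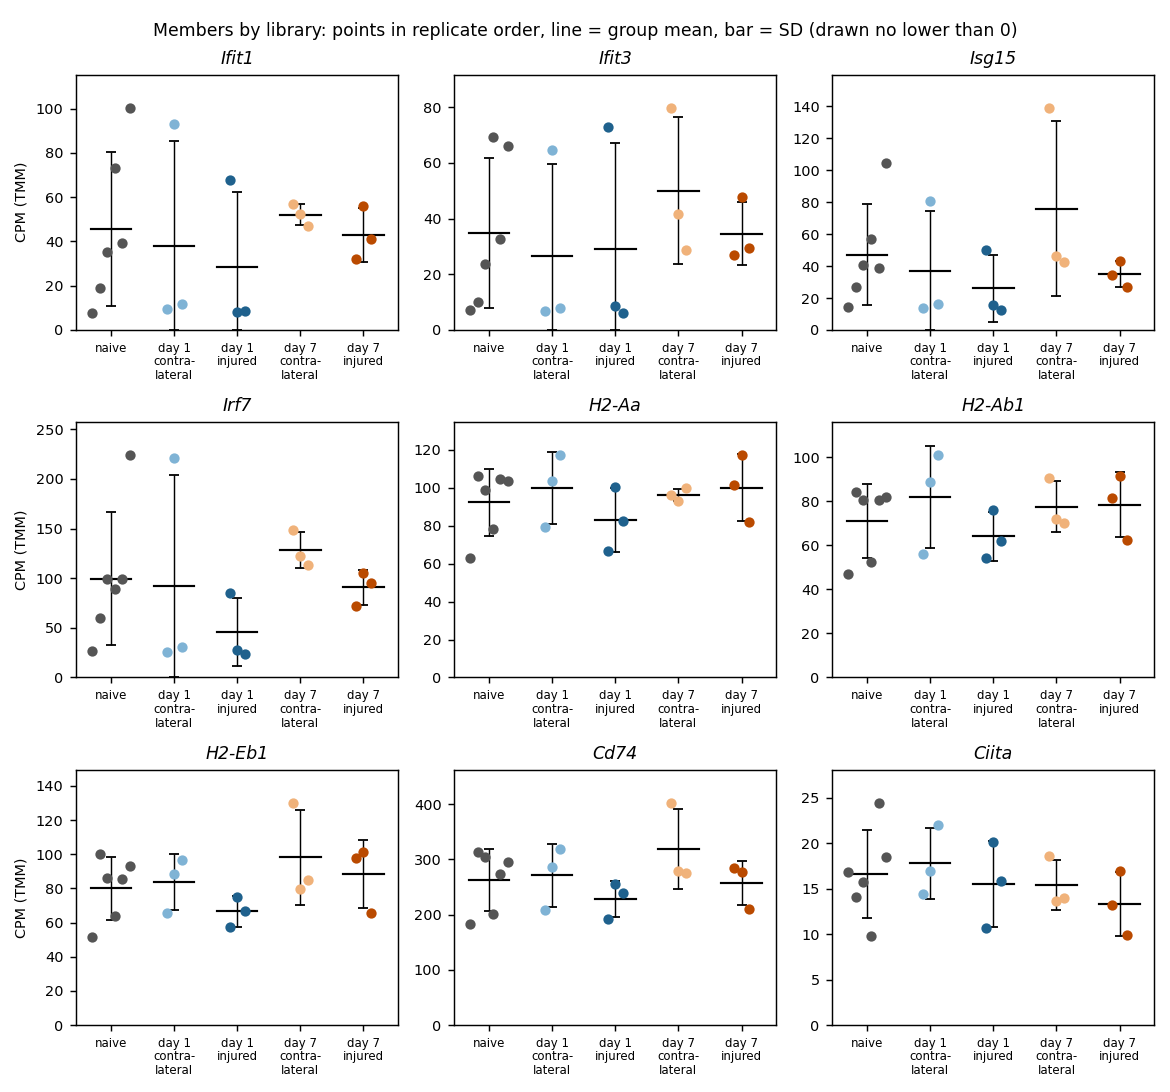
Level of each member in CPM (y axis, TMM-scaled, starting at 0) in the 18 libraries, by labelled group (x axis). Points are libraries in replicate order, lines are group means and bars are SD (drawn no lower than 0, n = 6 naive and 3 in each other group). One library of each day 1 group is high for the 4 interferon-stimulated genes, at 92.9 and 67.8 CPM for Ifit1, and the other two are low, whereas H2-Aa stays between 63.1 and 117 CPM.

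Isg15 was between 14.6 and 105 CPM in the naive group (median 39.7 CPM). It was 13.9, 80.6 and 16.1 CPM in day 1 contralateral and 50.4, 15.3 and 12.8 CPM in day 1 injured libraries. At day 7 it was 139, 46.2 and 42.8 CPM in contralateral and 34.6, 43.1 and 26.7 CPM in injured knees. The highest value was that of the day 7 contralateral library that stood apart by its composition. Irf7 was between 26.2 and 224 CPM in the naive group (median 93.8 CPM), and was 25.4, 221 and 30.96 CPM in day 1 contralateral and 85.2, 28.0 and 24.1 CPM in day 1 injured libraries. At day 7 Irf7 was 149, 123 and 113 CPM in contralateral knees and 71.7, 105 and 95 CPM in injured knees, so that these groups did not overlap, as was the case for 33.0% of all genes in this comparison (14.3% lower in injured knees). The libraries labelled naive replicate 6 and day 1 contralateral replicate 2 were alike in all 4 genes, with Irf7 at 224 and 221 CPM. So were naive replicate 4 and day 1 injured replicate 1, with Irf7 at 88.6 and 85.2 CPM and Ifit1 at 73.2 and 67.8 CPM. These pairs also matched best over the 9886 genes. With the genes most like the ISGs left out, naive replicate 4 and day 1 injured replicate 1 still had r = 0.55, whereas naive replicate 6 and day 1 contralateral replicate 2 had r = 0.29, and the best match of the latter was then day 1 contralateral replicate 1, of its own label (r = 0.29).

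Expressed as the SD of log2(CPM + 0.5) around the group means, the spread of the ISG members was 1.35 for Ifit3, 1.27 for Ifit1, 1.00 for Irf7 and 0.98 for Isg15. These were ranks 53, 65, 131 and 138 among 15990 genes of mean CPM at least 1, whose median was 0.21. The spread differed between groups. For Ifit1 it was 1.31 in the naive, 1.78 in the day 1 contralateral and 1.69 in the day 1 injured group, and 0.13 and 0.40 in the day 7 contralateral and injured groups. Isg15 was as spread in the day 7 contralateral (0.945) as in the naive group (0.95), and Ifit3 had 0.74 in the day 7 contralateral group. Each ISG member rested on at least 145 estimated counts in every library, so that counts near 0 do not enter these figures.

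**Figure D2:**
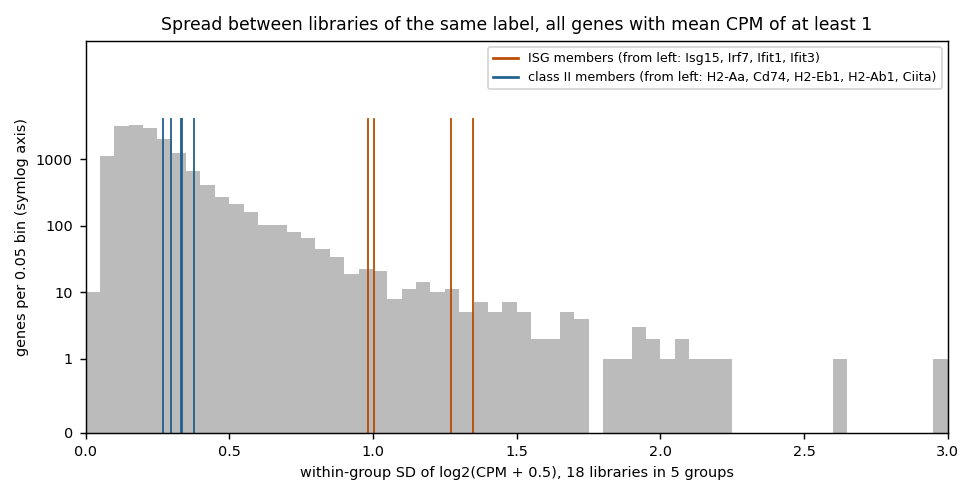
Number of genes (y axis, symlog scale) by SD of log2(CPM + 0.5) between libraries of the same label (x axis, log2 units, 15990 genes, 18 libraries). Orange lines mark the interferon-stimulated members, from 0.98 to 1.35, far right of the all-gene median of 0.21, and blue lines the class II members, from 0.27 to 0.38.

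The class II members varied little by comparison. H2-Aa was between 63.1 and 106 CPM in the naive group (median 101 CPM). It was 79.2, 103.4 and 117 CPM in day 1 contralateral, 66.4, 100 and 82.3 CPM in day 1 injured, 96.01, 93.2 and 99.6 CPM in day 7 contralateral and 101, 117 and 81.8 CPM in day 7 injured libraries. All 5 groups overlapped in CPM, and the highest library was 1.85-fold above the lowest. In TPM H2-Aa ranged more widely, from 19.2 to 74.6. There the day 1 contralateral libraries (58.8 to 67.8 TPM) did not overlap the day 7 injured libraries (37.5 to 51.2 TPM). Unlike CPM, the deposited TPM are not scaled by TMM. How many of all genes separate these groups in TPM was not counted, so this gap is not read as a difference in H2-Aa. Cd74 was between 183 and 314 CPM in the naive group (median 285 CPM) and 208, 286 and 319 CPM in day 1 contralateral libraries. It was 192, 256 and 238 CPM in day 1 injured, 402, 279 and 276 CPM in day 7 contralateral and 284, 277 and 211 CPM in day 7 injured libraries. H2-Ab1 ranged from 46.9 to 101 CPM and H2-Eb1 from 51.8 to 130 CPM over the 18 libraries. Ciita was between 9.83 and 24.4 CPM in the naive group and between 9.89 and 16.9 CPM in day 7 injured knees. The within-group SD of these genes was between 0.27 and 0.38 on the log2 scale, above the median of all genes but at ranks 1872 to 4674 of 15990. In CPM the library labelled naive replicate 1 was the lowest of all 18 for H2-Aa, H2-Ab1, H2-Eb1 and Cd74, and was also low for the ISG members. In TPM the lowest library for these class II genes was day 7 contralateral replicate 1, for instance at 17.2 TPM for H2-Ab1.

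The first comparison asked what the knees showed 1 day after rupture. By edgeR's quasi-likelihood test with Benjamini-Hochberg adjustment (false discovery rate, FDR, at most 0.05 and at least 1.5-fold), 0 of the 9 members was called in day 1 injured against naive, day 1 contralateral against naive or day 1 injured against day 1 contralateral knees. None of 21129 genes was called in these comparisons (0.0% each), while 959, 554 and 1383 genes had an unadjusted p under 0.05 (4.54%, 2.62% and 6.55%). DESeq2 called 15, 2 and 0 genes and limma-voom 0 in each. Irf7 had a log2 fold change of -1.12 (SE 0.70, FDR 0.99) in day 1 injured against naive knees, with a 95% interval from -2.62 to 0.37. Ifit1 had -0.70 (interval -2.53 to 1.13) and Isg15 -0.85 (interval -2.21 to 0.52). Day 1 injured replicate 1 held 67.8 CPM of Ifit1, against 8.26 and 8.65 CPM in the other libraries of its group. Irf7 and Isg15 were also highest there, so the values of these genes would lie lower without it. H2-Aa had -0.15 (interval -0.54 to 0.24) and Cd74 -0.20 (interval -0.60 to 0.20). The intervals of the ISG members include a 4-fold fall, whereas those of H2-Aa and Cd74 correspond to 0.687-fold to 1.178-fold and 0.662-fold to 1.147-fold.

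At day 7 the question was whether the genes differed in injured knees once the response of the tissue was large. In day 7 injured against naive knees 0 of the 9 members was called, while 3498 of 21129 genes were called (16.6%), 2207 higher (10.4%) and 1291 lower (6.11%). No member had an unadjusted p under 0.05, against 41.1% of all genes. Ifit1 had a log2 fold change of -0.08 (SE 0.84, 95% interval -1.86 to 1.70, FDR 0.95) and Ifit3 of -0.00 (SE 0.87, interval -1.86 to 1.86). Isg15 had -0.43 (SE 0.63, interval -1.77 to 0.92) and Irf7 -0.12 (SE 0.67, interval -1.55 to 1.31). The class II members had smaller standard errors. H2-Aa had 0.13 (SE 0.18, interval -0.25 to 0.52), H2-Ab1 0.16 (SE 0.22, interval -0.30 to 0.62), H2-Eb1 0.16 (SE 0.20, interval -0.26 to 0.58) and Cd74 -0.01 (SE 0.18, interval -0.40 to 0.38). For Cd74 the interval corresponds to 0.76-fold to 1.30-fold. Ciita had -0.30 (SE 0.26, interval -0.86 to 0.25, FDR 0.41). With the 3 libraries high in Timp1 left out, Isg15 had -0.50 and H2-Aa 0.15, and again no member was called.

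In day 7 injured against day 7 contralateral knees 0 of the 9 members was called, against 2670 of 21262 genes (12.6%), 9.33% higher and 3.23% lower. None had an unadjusted p under 0.05, against 31.2% of all genes. Isg15 had the largest difference, with a log2 fold change of -1.12 (SE 0.73, interval -2.67 to 0.42, FDR 0.32). Without day 7 contralateral replicate 1, the library that stood apart, the value for Isg15 was -0.33 (FDR 0.83). The fit estimated a single spread per gene over all groups, so the intervals of the ISG members here also carry the scatter of the naive and day 1 libraries. Ifit1 had an SE of 0.91, whereas its within-group SD was 0.13 in day 7 contralateral and 0.40 in day 7 injured knees. Irf7, whose groups did not overlap, had -0.50 (SE 0.73, interval -2.03 to 1.03, FDR 0.69). Fitted on the 6 day 7 libraries alone, which leaves the scattered naive and day 1 libraries out of the estimate of the spread, Irf7 had the same -0.50 with SE 0.18 and FDR 0.12. H2-Aa had 0.05 (interval -0.36 to 0.47), H2-Ab1 0.02 (interval -0.49 to 0.53), H2-Eb1 -0.15 (interval -0.66 to 0.36), Cd74 -0.31 (interval -0.78 to 0.15) and Ciita -0.21 (interval -0.82 to 0.40). In their group Cd74 and H2-Eb1 were highest in day 7 contralateral replicate 1, at 402 and 130 CPM. They were at most 279 and 84.8 CPM in the other day 7 contralateral libraries, so both values would be higher without it.

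**Figure D3:**
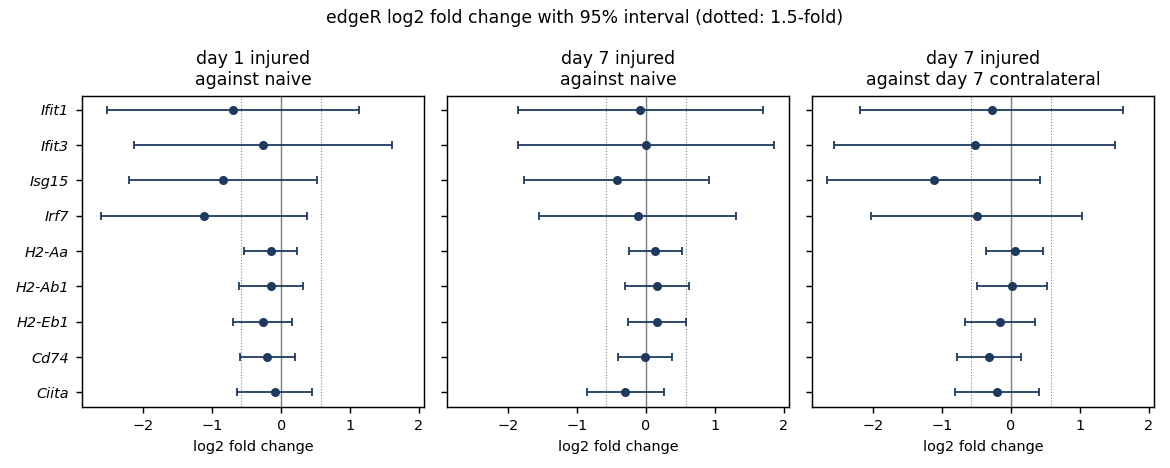
Log2 fold change of each member (y axis) by edgeR in day 1 injured against naive, day 7 injured against naive and day 7 injured against day 7 contralateral knees (x axis, log2 units), with points for the estimate, bars for the 95% interval and dotted lines at 1.5-fold. All 27 intervals include 0, and those of the interferon-stimulated members are wide, such as -1.86 to 1.70 for Ifit1 in day 7 injured against naive knees, while that of H2-Aa spans -0.25 to 0.52 there. Each interval rests on a spread estimated over all groups of its fit, not over the 2 groups compared.

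The remaining comparisons gave no call either. Day 7 injured against day 1 injured knees had 3257 of 21129 genes called (15.4%, 9.04% higher and 6.38% lower) and 0 of 9 members, and 37.8% had an unadjusted p under 0.05. H2-Eb1 came nearest, with a log2 fold change of 0.43 (SE 0.23, interval -0.06 to 0.92, FDR 0.19). Ifit1 had 0.62 (SE 0.97) in this comparison and 2.35 (FDR 0.13) when day 1 injured replicate 1, the high library of its group, was left out. Day 7 contralateral against naive knees had no gene called (0.0% of 21262, 3220 or 15.1% at an unadjusted p under 0.05), and day 7 contralateral against day 1 contralateral knees had 4 (0.0188%, 0.0141% higher and 0.0047% lower, with 12.4% at an unadjusted p under 0.05). DESeq2 called 8 genes in the former and 81 in the latter, and limma-voom 0 in both. How far the effect of injury changed from day 1 to day 7 was tested as an interaction, which was called for 802 genes (3.77%, 3.53% higher and 0.245% lower, with 16.3% at an unadjusted p under 0.05) and for 0 members, with log2 differences from -0.68 for Ifit3 to 0.51 for Irf7. Over the 81 tests of a member, none had an unadjusted p under 0.05, with a lowest value of 0.0825. Neither DESeq2 nor limma-voom called a member in any comparison.

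The libraries that were high in the ISG members were high in many other ISGs. Each gene was set against the mean z-score of the 4 ISG members over the 18 libraries, as a description, since contralateral and injured libraries share mice. Among the genes most like this score were Dhx58, a regulator of RNA sensing (r = 0.99), Oas1a, an enzyme that activates RNase L (r = 0.99), the GTPase Irgm2 (r = 0.98), the RNA-editing enzyme Adar (r = 0.98) and Parp12 (r = 0.98). Of a list of 51 other ISGs, 50 passed the level filter, and 47 of these had r of at least 0.8 (median 0.94), against 161 of all 15990 genes (median 0.03). Isg20, an exonuclease, was lowest of the list at 0.19. Rsad2, its most abundant gene and the source of the antiviral protein viperin, had r of 0.86. Ifitm3 and Ifit3b had 0.94 and 0.96. Over 18 libraries the highest level of a listed ISG was a median of 4.77-fold above its lowest, against 2.09-fold for all genes.

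Of 19 genes of the MHC class I pathway, 9 had r of at least 0.8 with the ISG score (median 0.74). Among them were the peptide transporter subunit Tap1 (0.86), the immunoproteasome subunit Psmb8 (0.83) and Nlrc5, the co-activator of class I genes (0.88). H2-D1, the most abundant class I gene of the list, had 0.73 and B2m, the light chain, had 0.23. B2m was 106 CPM in day 7 contralateral replicate 1 and at least 326 CPM in each other library. The class II members had r between -0.18 (Ciita) and 0.40 (H2-Eb1) with the ISG score, and none of 17 other class II pathway genes reached 0.8 (median 0.19). The ISG score and the class II score had r = 0.24 and rho = 0.26 over 18 libraries, and r = 0.15 without day 7 contralateral replicate 1.

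**Figure D4:**
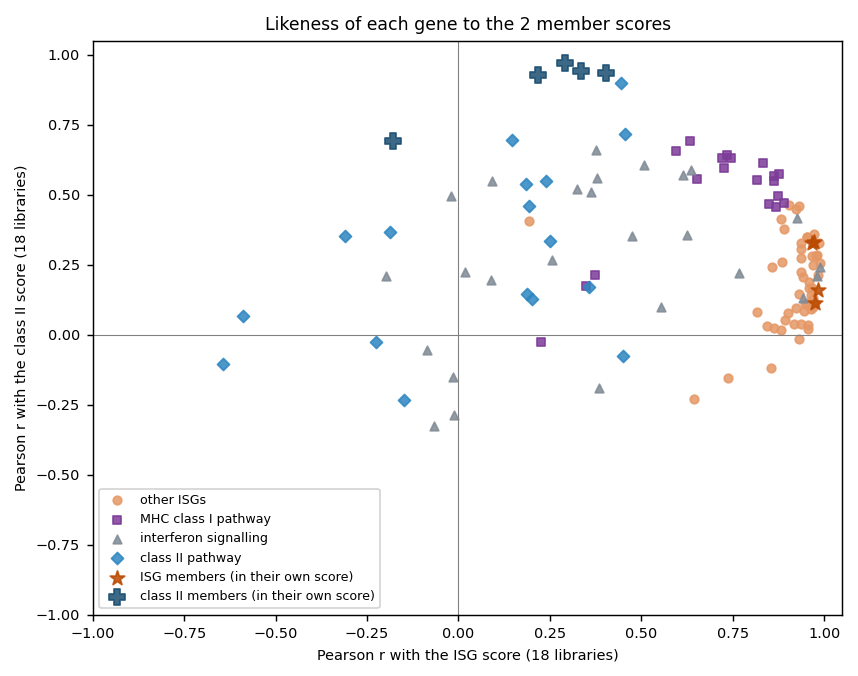
Pearson r of each listed gene with the mean z-score of the 4 interferon-stimulated members (x axis) and of the 5 class II members (y axis) over 18 libraries, with 1 point per gene. Other interferon-stimulated genes gather at the right, with a median r of 0.94 on the x axis, class I pathway genes lie to their left with a median of 0.74, the class II members lie at the top, and the other class II pathway genes are scattered, with a median of 0.19 on the x axis. A member is part of its own score, so its r with that score is partly fixed.

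The class II members followed one another. The 4 chain and invariant-chain genes had r between 0.88 and 0.95 with the mean of the other class II members, and Ciita had 0.55. The 6 other genes most like the class II score were H2-DMa, a subunit of the peptide-loading catalyst H2-DM (r = 0.90), Naa10 (0.89), Pym1 (0.85), AU020206 (0.85), Acd (0.82) and Polr2c (0.81). Among the marker lists the median r with the class II score was 0.43 for macrophage, 0.40 for T and NK cell, 0.34 for erythroid, 0.25 for B cell, 0.17 for dendritic cell and -0.15 for chondrocyte genes. With the ISG score the corresponding medians were 0.31, 0.32, 0.02, -0.20, 0.04 and 0.10. The neutrophil list had the highest median of the marker lists with the ISG score, 0.57, led by the granule protease Prtn3 (0.83), and 0.08 with the class II score. The part of cell composition in either pattern was not tested.

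**Figure D5:**
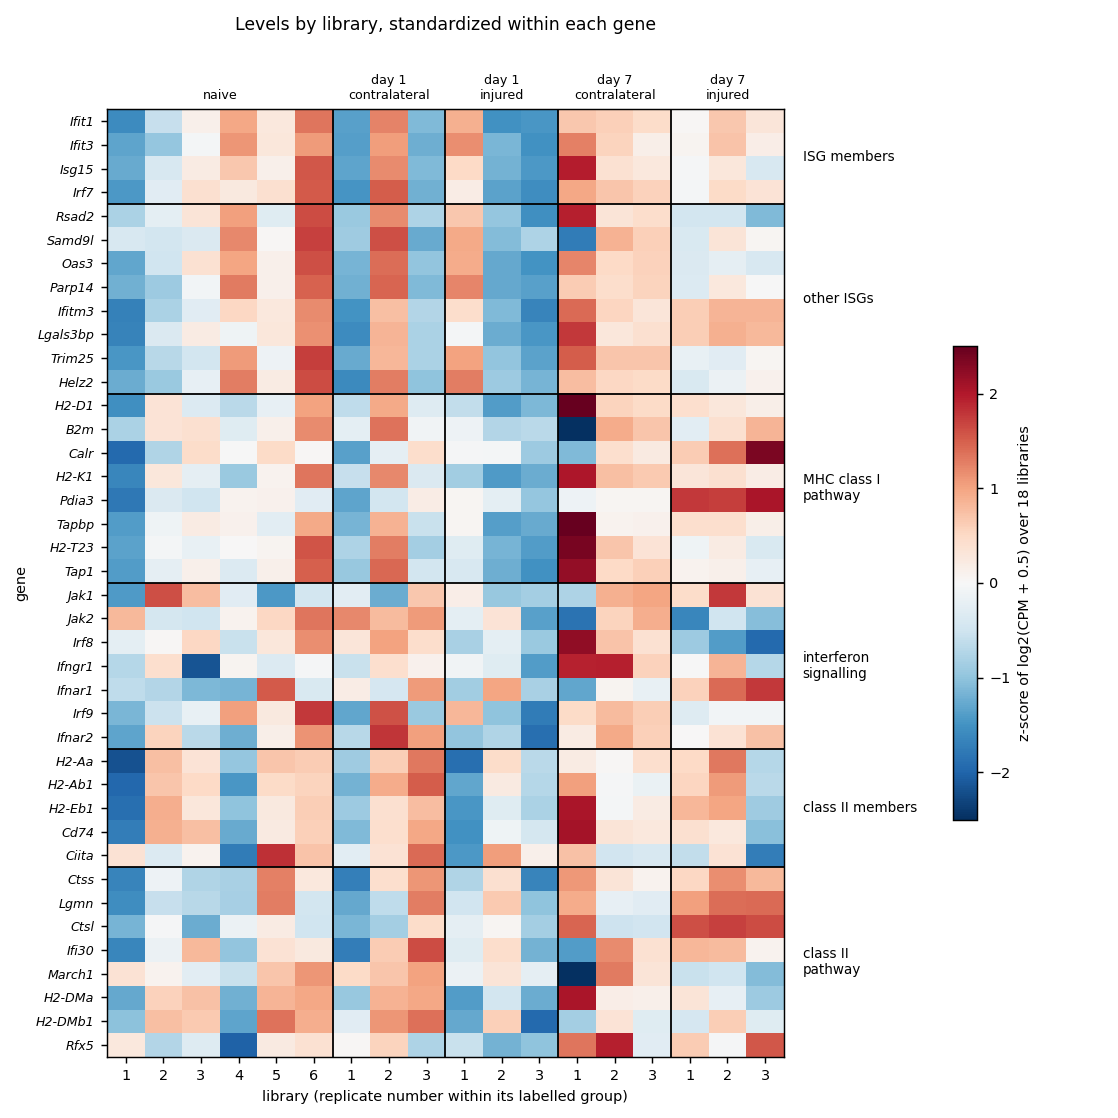
Z-score of log2(CPM + 0.5) (colour) for each member and up to 8 of the most abundant genes of 4 related lists (rows) in the 18 libraries (columns, by labelled group and replicate number). Naive replicate 6 and day 1 contralateral replicate 2 are high in the interferon-stimulated members, with Irf7 at 224 and 221 CPM, and these libraries do not stand out in the class II members.

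Ligands, signalling proteins and neighbouring pathway genes were read in the same fits, from lists chosen by function. Transcripts of interferons themselves were scarce. Of 10 ligand genes 6, among them Ifna1, Ifna4, Ifne and Ifnl3, were at 0 in all 18 libraries, where a count of 0 allows up to 3 counts in a library. Ifnk, the most abundant, did not exceed 0.587 CPM, and Ifng did not exceed 0.49 CPM. Ifnb1 was above 0 in 1 library, at 0.0779 CPM in day 7 contralateral replicate 1.

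Of the 50 other ISGs tested, 0 was called in day 7 injured against naive or against day 7 contralateral knees, where 16.6% and 12.6% of all genes were called. In the 2 comparisons 1 and 2 of them had an unadjusted p under 0.05, and DESeq2 and limma-voom called 0 as well. The median log2 fold changes were -0.11 and -0.32, against -0.04 and -0.05 for all genes. Isg20 was the one called lower against naive when naive replicate 4 or 5, or day 7 injured replicate 1 or 2, was left out. It was 62.7 ± 7.20 CPM (SD, n = 6) in naive and 41.9 ± 7.53 CPM (n = 3) in day 7 injured knees. Fitted on the 6 day 7 libraries alone, 2 of the list, Ifi27l2a and Oas3, were called lower than in contralateral knees, where 279 of 18166 genes were called lower (1.54%) and 1701 higher (9.36%).

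Of 26 interferon signalling genes, 3 were called higher in day 7 injured than in naive knees and none lower, where 10.4% of all genes were called higher and 6.11% lower. Socs1, an inhibitor of JAK kinases induced by cytokines, was 9.79 ± 0.379 CPM in day 7 injured knees and between 3.40 and 6.69 CPM in the naive libraries. It rose with a log2 fold change of 1.145 (SE 0.26, FDR 0.00372), and was called in 18 of 18 settings. Against day 7 contralateral knees, at 8.57, 4.50 and 4.12 CPM, it had 0.80 (SE 0.33, FDR 0.11) and was called in 2 of 15 settings. Its relative Socs3 had 1.43 (SE 0.47, FDR 0.0329) and was called in 11 of 18 settings. Against contralateral knees Socs3 had 1.55 (SE 0.54, FDR 0.0542) and was called in 3 of 15 settings. Tlr3, a receptor for double-stranded RNA in endosomes, was 8.90, 13.9 and 14.3 CPM in day 7 injured knees, between 5.38 and 8.85 CPM in naive and between 4.36 and 7.04 CPM in day 7 contralateral knees. It rose against naive (0.83, SE 0.19, FDR 0.00461) and against contralateral knees (1.06, SE 0.24, FDR 0.00445). Ifnlr1, the specific chain of the lambda interferon receptor, and Irf8, a factor of myeloid and dendritic cell development, fell against contralateral knees by 0.80 (SE 0.15, FDR 0.0011) and 0.75 (SE 0.14, FDR 0.00111) on the log2 scale. Their values against naive knees, -0.52 and -0.46, were below the 1.5-fold limit. Jak1, the most abundant gene of this list, was 300 ± 13.4 CPM in day 7 injured and 283 ± 19.3 CPM in naive knees. In the interaction 1 of the 26 genes was called, and lower, where 3.53% of all genes were called higher and 0.245% lower. An unadjusted p under 0.05 was found for 4 of them, and for 16.3% of all genes. The called gene was Ifnlr1 (log2 difference -0.85, SE 0.21, FDR 0.0307).

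Of 17 other class II pathway genes tested, 2 were called higher in day 7 injured than in naive knees and none lower, a share near the 10.4% of all genes called higher. Both encode lysosomal proteases. Ctsl, a protease that degrades the invariant chain in some cells, was 153, 158 and 154 CPM in injured knees and between 62.2 and 98.1 CPM in naive knees (log2 fold change 0.97, SE 0.16, FDR 0.000415). Day 7 contralateral knees held 146, 78.3 and 79.4 CPM, and the difference from them, 0.62 (FDR 0.0767), was not called. Without day 7 contralateral replicate 1 it was called. Lgmn, or asparaginyl endopeptidase, had 0.85 (SE 0.30, FDR 0.0449) against naive knees and was called in 10 of 18 settings. Ctss, the most abundant gene of the list, was 173 ± 16.6 CPM in injured and 128 ± 39.6 CPM in naive knees and was not called. Of 19 class I pathway genes, 1 was called higher in day 7 injured than in naive knees and none lower, a share below that of all genes. It was Pdia3, an endoplasmic reticulum chaperone of the peptide-loading complex that also folds other glycoproteins (0.67, SE 0.12, FDR 0.000555), at 435 ± 15.3 CPM in injured and 277 ± 35.3 CPM in naive knees. Against day 7 contralateral knees no gene of these 2 lists was called. The class I pathway had a median log2 fold change of -0.61 there, against -0.05 for all genes, with 5 of 19 genes at an unadjusted p under 0.05 where 31.2% of all genes were. Against naive knees its median was -0.00 in day 7 injured knees (9 of 19 genes above 0) and 0.52 in day 7 contralateral knees (18 of 19 above 0, 10 of 19 at an unadjusted p under 0.05 where 15.1% of all genes were, and none called). Its summed level was highest in the outlying day 7 contralateral replicate 1, at 5761 CPM, against 4230 and 4033 CPM in the other contralateral and 3709 to 4044 CPM in the injured libraries. Against day 7 contralateral knees DESeq2 called Tap2 lower, and limma-voom called no class I gene. In day 1 injured knees the class I median was -0.51 against naive knees, with 5 of 19 genes at an unadjusted p under 0.05 (4.54% of all genes). Against day 1 contralateral knees it was -0.57, with 5 of 19 genes (6.55% of all genes), and no gene was called in either.

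Markers of other cell types moved at day 7 beside these values. Of all genes 10.4% were called higher and 6.11% lower against naive knees, and 9.33% and 3.23% against day 7 contralateral knees, and the counts below are read beside these shares. In day 7 injured against naive knees 3 of 14 B cell markers were lower (Cr2, Ms4a1 and Fcer2a) and none higher, and 2 of 10 dendritic cell markers were lower, both typical of plasmacytoid cells (Siglech, -0.88, SE 0.17, FDR 0.00104, and Ccr9, -0.63). Of 12 macrophage markers 1 was called higher and none lower. Of 10 neutrophil markers S100a8 and S100a9 were lower, and of 9 erythroid markers 5 were lower, among them Alas2 (-0.73) and Slc4a1 (-0.66). None of 10 T and NK cell markers was called. Of 8 osteoclast markers Ctsk was higher (1.25), and 4 of 8 endothelial markers were higher (Emcn, Cdh5, Pecam1 and Tie1, between 0.71 and 1.04). Of 8 synovial fibroblast markers 4 were higher, from 1.32 for Pdgfra to 4.29 for Postn, with Thy1 and Col3a1 between them. Of 12 chondrocyte markers Sox9, Acan and Comp were higher and Chad was lower. Against day 7 contralateral knees the markers called were 1 B cell gene, which was higher (Ebf1, 0.68), Siglech and the macrophage gene Cd163, which were lower, 3 neutrophil genes, which were lower (Camp, Ly6g and Ltf), and 5 erythroid genes, which were lower. Higher were 3 endothelial, 5 synovial fibroblast and 4 chondrocyte genes, and no osteoclast or T and NK cell gene was called. Ebf1 and Cd163 went against their lists in this comparison. Ebf1 was the 1 B cell marker of 14 above 0 (list median -0.35), and 8 of 12 macrophage markers lay above 0 (list median 0.08). One of the erythroid calls, Klf1, rested on a single library, at 88.4 CPM in day 7 contralateral replicate 1 and at most 0.27 CPM in the other day 7 libraries. The part of these shifts in the levels of the 9 members was not tested.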

How the data were processed

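Total RNA of the pooled caps was depleted of ribosomal RNA, and stranded libraries were sequenced. The authors trimmed the reads and pseudo-aligned them with kallisto to the GRCm38 transcriptome, and deposited estimated counts, TPM and transcript and effective lengths for 137436 transcripts. Of these, 98.3% matched GENCODE M21, and 2329 transcripts, holding between 0.667% and 3.90% of counts, were left out. The labels name GRCh38 as the build, but the identifiers are those of the mouse. The authors left 1 library with a low mapping rate out of their tests, and which one is not given in the sources used here. The deposited expected counts were summed per gene and rounded, and deposited TPM were summed per gene. The deposited lengths, in bases, served only for length-scaled counts.

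Genes were tested with edgeR 4.0.16 (TMM, filterByExpr, quasi-likelihood F test) in R 4.3.3, and called at FDR at most 0.05 and at least 1.5-fold. The fit held 15 libraries where day 7 contralateral knees were not compared, and 18 otherwise. CPM are scaled by TMM over 18 libraries. The limma 3.58.1 voom method, DESeq2 1.42.0 and other settings served as alternatives. Intervals are 95% intervals of the fit. Depth was between 16074762 and 41794005 counts per library. P-values measure the spread between pools. Contralateral and injured pools share mice, as do naive pools, so the naive libraries are not 6 independent samples and p-values against them may be too small. The members, gene lists and motifs were chosen with earlier results of these data known. Named genes are the 9 members, the interferon ligands and Ifitm3, Ifit3b and H2-Ea-ps where measured, the most abundant gene of each list, up to 6 members per list with the largest change among those called at day 7, and the 6 genes most like each score. Other genes were named after their values were seen, and some genes that this rule takes in are not reported here.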

Additional observations from a re-analysis of the deposited data

Results flagged for a closer look

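Among the 9 members in the naive group, the only group with more than 3 libraries, 1 value lay far from the others. Irf7 was 224 CPM in its highest naive library, replicate 6, and the gap to the next library was 0.628 of the whole range, just above Dixon's critical value for 6 libraries. Chance gives such a gap in about 1 in 20 groups, and 9 groups of values were examined. The library labelled day 1 contralateral replicate 2 had a similar level of Irf7, 221 CPM. In TPM naive replicate 6 was at 69.8, the next naive library at 34.3 and the lowest at 9.16, a gap below the critical value. Naive libraries share mice, and the cause was not tested.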

How the results depend on the processing

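No paired analysis was possible because the labels do not tie a contralateral library to the injured library of the same mice, and replicate numbers only name samples. The count of members called stayed at 0 in every combination of comparison and alternative that was run, between 13 and 19 of the 27 alternatives for each of the 9 comparisons, which gave 1269 values for single members with a lowest FDR of 0.0919. The sign of an uncalled value differed from the main value in 105 of these, over 39 of 81 combinations of member and comparison. Day 7 injured against naive: of the other ISGs 0 were called, 1 with the FDR limit alone, 1 without the 3 libraries high in Timp1 (an alternative chosen after seeing the data) and 0 to 1 leaving out single libraries. Of interferon signalling genes 3 were called, 6 with the FDR limit alone and 2 to 3 leaving out single libraries. Of class II pathway genes 2 were called, 4 without the 3 libraries and 1 to 2 leaving out single libraries. Of class I genes 1 was called, and 2 with the FDR limit alone. For comparison, over all 21129 genes the FDR limit alone gave 3960 higher and 2331 lower, against 2207 and 1291 with both limits. The share of interferon signalling genes called with the FDR limit alone was below that of all genes. Without the 3 libraries, 2258 of 21373 genes were higher and 1473 lower. Leaving out single libraries gave 1836 to 2292 higher and 797 to 1425 lower. Day 7 injured against contralateral: of the other ISGs 0 were called, 1 with the FDR limit alone, 2 with the day 7 libraries alone (also chosen after seeing the data) and 0 to 1 leaving out single libraries. Of interferon signalling genes 3 were called, and 2 to 4 over all alternatives. Of class II pathway genes 0 were called, 1 by limma-voom, 1 without the 3 libraries and 0 to 1 leaving out single libraries. Of class I genes 0 were called, 1 with the FDR limit alone, no filter, DESeq2, length-scaled counts or the day 7 libraries alone, and 0 to 2 leaving out single libraries. Over all 21262 genes the FDR limit alone gave 2650 higher and 1310 lower here, against 1984 and 686 with both limits. DESeq2 gave 2046 and 802, and limma-voom 1974 and 452. The day 7 libraries alone gave 1701 and 279 of 18166 genes. Without the 3 libraries the counts were 2070 and 672 of 21537. Leaving out single libraries gave 1508 to 2030 higher and 279 to 1058 lower. The cause of the shifts in the list counts was not tested.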

Other observations

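Some features of the transcripts behind the members were noticed after their values were seen and were given no test. Cd74 was measured mainly as 2 coding transcripts of 1224 and 1410 bases. The longer took 30.5% ± 0.48 (SD, n = 3) of the gene's estimated counts in day 7 injured knees, from 30.0% to 30.9%. In naive knees it took 24.6% ± 2.42 (n = 6), from 21.7% to 28.1%, and in day 7 contralateral knees 24.6% ± 1.60 (n = 3). In the day 1 groups it did not exceed 28.3%. How many other transcripts separate the groups in this way was not counted. For H2-Eb1, the transcript annotated as subject to nonsense-mediated decay (1082 bases) took between 42.7% and 59.8% of the counts in naive and between 46.9% and 59.4% in day 7 injured knees. The coding transcript of 1669 bases took 23.6% ± 6.48 and 20.4% ± 6.28. Shares of transcripts that overlap are estimates of the pseudo-alignment.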
